A study of Mus musculus with 74 samples.

Results

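Alveolar type 1 (AT1) cell genes are described here in primary mammary tumors (PT) and lung metastases (Lung met) of the mouse. The 8 genes are Ager, Rtkn2, Akap5, Clic5, Gprc5a, Hopx, Pdpn and Aqp5, out of 22351 gene symbols that occur in any of the 6 gene tables. They were chosen by name as genes of AT1 cells, with their Lung met over PT ratios, p-values and PT levels in these same tables in view. The values that chose them are therefore given as a description, and no test of the genes as a group was made. All 8 genes have a row with a p-value in each of the 6 tables.

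AT1 cells are the thin, flat epithelial cells that cover most of the gas-exchange surface of the lung. Their cuboidal neighbours, the alveolar type 2 (AT2) cells, make surfactant and can give rise to AT1 cells. Genes such as Ager, Hopx and Pdpn are widely used to mark AT1 cells, although several of the 8 genes are also used by other epithelia, endothelium or stroma. In RNA from a whole piece of tissue, a transcript can come from tumor cells or from any other cell of that piece, and fewer cells of a type and less RNA per cell cannot be told apart.

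The comparison in each table asked which transcripts differ between metastases in the lung and the primary tumors of the same model. RNA-seq was done on 74 samples, with 6 PTs and 6 Lung mets in every model except C3Tag, which had 7 of each. The oncogenic driver models carry MMTV-Her2, C3TAg or MMTV-Myc on the FVB background. The first and the last use the mammary tumor virus promoter, and C3TAg uses the C3(1) promoter to express the SV40 large T antigen. All mice were females. The PyMT-F1 models are offspring of FVB males with MMTV-PyMT and females of another inbred strain, here BALB, SEAGN and AKR as the sample titles name them. The genotype label gives AKR/J for PyMT-F1 samples of other titles as well, and the titles were used. The growth protocol states that tumors and matching metastases were taken at humane endpoints. Per the methods, primary tumors of the driver models were resected earlier in animals with single lesions. The primary tumors of an animal were sampled and pooled, and whole metastatic nodules were used for RNA, so neither is a pure sample of tumor cells.

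What was analysed are group means of normalized counts and p-values. No value of a single sample entered, so animals are represented by means, their spread enters through the p-values alone, and the depth of each sample is unknown. Each table was normalized separately, so a level is compared between tables only by its rank, the percent of genes of the same table with a lower mean, which is not corrected for gene length unless this is said. The Myc table gave no mean and a p-value headed only tissue, where the other headings name the comparison of metastasis with primary tumor. No direction was analysed for Myc. The table that carries the name AKR is called AKR-named here, because its strain was not settled. Its fold changes match those that a supplementary table of the study gives for another strain, BL6. Which samples, and how many, entered its means and p-values is therefore not known.

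The AT1 genes were higher in Lung met than in PT in most models, by factors that reached 46.3 for Clic5 in SEAGN and 44.5 for Ager in AKR-named. Ager, Rtkn2, Akap5, Clic5 and Hopx had a false discovery rate (FDR) under 0.05, which is the call used throughout, and a higher Lung met mean in each of the 5 tables with means. Gprc5a was called in 4 of these 5 tables and Pdpn in 1. Aqp5, the water channel of AT1 cells and of secretory glands, was called in none. Its PT mean per kilobase of exon was above that of 93.0% to 99.6% of genes. The 5 genes called in each table remained 5 when the AKR-named table was left out.

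In Her2, 6 of the 8 genes were called higher, and 0.851% of all genes of that table were called higher and 0.253% lower. In C3Tag, 5 of the 8 genes were called higher, against 0.989% of all genes higher and 0.129% lower. The count was 6 of 8 in BALB, where 1.18% of all genes were called higher and 1.66% lower. It was also 6 of 8 in SEAGN, where 5.72% of all genes were called higher and 5.14% lower. In AKR-named, 7 of 8 genes were called higher, beside 5.74% of all genes higher and 1.95% lower. None of the 8 genes was called lower by the Benjamini-Hochberg FDR in these 5 tables. Only Aqp5 had a lower Lung met mean anywhere, in Her2 and BALB, and its unadjusted p-values there were 0.706 and 0.125, so 0 genes were lower at an unadjusted p under 0.05. In Myc, 3 of the 8 genes were called, and 0.19% of all genes were called in either direction. As these comparisons chose the genes, nothing is read from the difference between the counts and the shares.

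The median log2 ratio of Lung met over PT of the 8 genes was 3.52 in Her2, 2.68 in C3Tag, 2.38 in BALB, 3.28 in SEAGN and 3.75 in AKR-named. The median over all genes was 0.00 in Her2, 0.01 in C3Tag, 0.03 in BALB, 0.02 in SEAGN and 0.01 in AKR-named. Within each table the genes were far apart. In SEAGN, for example, they ran from 0.51 for Pdpn to 5.53 for Clic5.

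**Figure D1:**
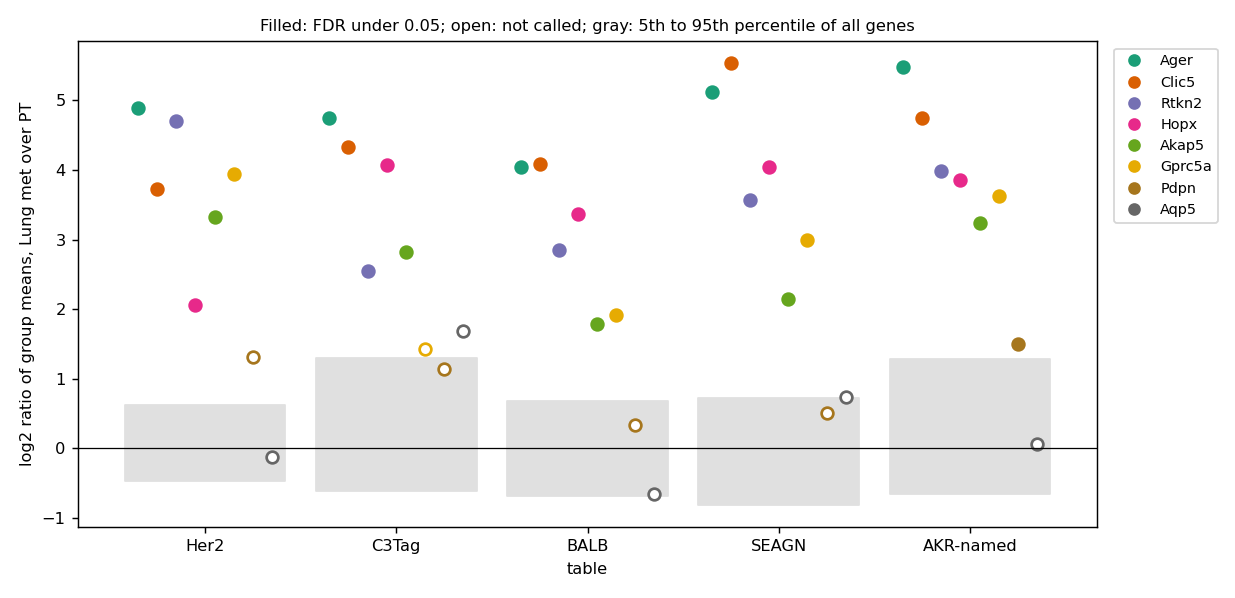
Log2 ratio of the group means of Lung met over PT (y axis) for the 8 AT1 genes in the 5 tables with means (x axis), with filled points for FDR under 0.05, open points for genes not called, and a gray band from the 5th to the 95th percentile of all genes of the table. Ager, Clic5, Rtkn2, Hopx and Akap5 are filled and above the band in all 5 tables, and Aqp5 is open in each, from -0.66 in BALB to 1.69 in C3Tag.

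Ager (ENSMUSG00000015452; GRCm38, chromosome 17, 34597862 to 34600936, plus strand) encodes RAGE, a cell surface receptor for advanced glycation end products, HMGB1 and S100 proteins that AT1 cells carry at high levels. Its mean normalized count in PT and in Lung met was 62.5 and 1847 in Her2, 80.4 and 2166 in C3Tag, 17.6 and 290.3 in BALB, 16.7 and 579.8 in SEAGN, and 214.1 and 9532 in AKR-named. Lung met was thus above PT in every one of these tables, and the log2 ratio ran from 4.04 in BALB to 5.48 in AKR-named. The FDR was 4.3e-05 in Her2, 0.00104 in C3Tag, 1.93e-16 in BALB, 1.6e-56 in SEAGN and 2.56e-06 in AKR-named. Between 99.8% and 99.97% of the genes of a table had a lower log2 ratio. In PT, between 17.9% and 38.2% of genes had a lower mean than Ager, and in Lung met this share was between 67.4% and 97.7%. Per kilobase of exon, its PT rank was between 17.3% and 46.65%.

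Clic5 (ENSMUSG00000023959; chromosome 17, 44188584 to 44280172, plus strand) encodes a chloride intracellular channel protein that associates with ezrin and the actin cortex. Its PT and Lung met means were 77.8 and 1031 in Her2, 104.7 and 2113 in C3Tag, 17.5 and 296.5 in BALB, 13.2 and 610.8 in SEAGN, and 95.5 and 2574 in AKR-named. In BALB and SEAGN it led the 8 genes, with log2 ratios of 4.08 and 5.53. Ager led them in the other tables. The log2 ratio of Clic5 was 3.73 in Her2, 4.34 in C3Tag and 4.75 in AKR-named, and the FDR ran from 3.73e-42 in SEAGN to 0.0121 in C3Tag.

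Rtkn2 (ENSMUSG00000037846; chromosome 10, 67979570 to 68059740, plus strand) encodes rhotekin 2, a scaffold protein of GTPase signalling. Per kilobase of exon it was the lowest of the 8 genes in the PT of all 5 tables, and its PT means were 12.8 in Her2, 61.5 in C3Tag, 6.25 in BALB, 6.20 in SEAGN and 35.8 in AKR-named. In Lung met the means were 333.7, 359.5, 45.1, 73.5 and 568.2 in the same order. C3Tag had the smallest log2 ratio, 2.55 (FDR 0.0375), and also the highest PT rank, with 25.9% of genes below it. Her2 had the largest, 4.71 (FDR 2.99e-05). The gene overlaps the antisense gene Gm16212, and since the use of strand in the counting is not stated, reads of the pair cannot be told apart.

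Akap5 (ENSMUSG00000021057; chromosome 12, 76324891 to 76334153, plus strand) encodes an anchoring protein that holds protein kinase A near its targets at the membrane. The PT and Lung met means were 63.8 and 636.0 in Her2, 107.5 and 757.2 in C3Tag, 41.7 and 143.2 in BALB, 45.5 and 201.8 in SEAGN, and 105.5 and 997.2 in AKR-named. Akap5 had the steadiest place among the PT transcripts, with between 25.8% and 32.7% of genes below it in the 5 tables. Its log2 ratio was 1.78 in BALB, 2.15 in SEAGN, 2.82 in C3Tag, 3.24 in AKR-named and 3.32 in Her2, and the FDR ran from 1.54e-16 in SEAGN to 0.00499 in C3Tag.

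Hopx (ENSMUSG00000059325; chromosome 5, 77086988 to 77115121, minus strand) encodes a small homeodomain protein that does not bind DNA. Its PT and Lung met means were 91.9 and 383.1 in Her2, 44.0 and 740.8 in C3Tag, 6.77 and 69.9 in BALB, 6.95 and 114.8 in SEAGN, and 129.8 and 1881 in AKR-named. The log2 ratio was lowest in Her2, at 2.06, where the FDR of 0.0473 was near the threshold. It was 3.37 in BALB, 3.86 in AKR-named, 4.05 in SEAGN and 4.07 in C3Tag. An antisense gene, Hopxos, overlaps Hopx, with the same limit on the counts as for Rtkn2.

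Gprc5a (ENSMUSG00000046733; chromosome 6, 135065651 to 135084709, plus strand) encodes an orphan receptor induced by retinoic acid. The PT and Lung met means were 24.2 and 370.6 in Her2, 42.4 and 160.1 in BALB, 28.6 and 227.1 in SEAGN, and 152.9 and 1897 in AKR-named. In these tables it was called, with log2 ratios of 3.94, 1.92, 2.99 and 3.63 and FDRs of 1.77e-05, 0.00409, 2.39e-21 and 4.77e-08. C3Tag differed in level, with means of 1770 in PT and 4764 in Lung met, a log2 ratio of 1.43 and FDR 0.482. In the C3Tag PT, 83.1% of genes had a lower mean than Gprc5a, against 15.8% to 34.2% in the other tables. The Lung met mean of C3Tag was still above its PT mean, but the difference did not pass the test. Whether the models differ in it was not tested.

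Pdpn (ENSMUSG00000028583; chromosome 4, 143267431 to 143299564, minus strand) encodes podoplanin, a membrane glycoprotein that binds the platelet receptor CLEC-2 and is also made by lymphatic endothelium, fibroblasts, mesothelium and basal epithelial cells. Its PT and Lung met means were 122.5 and 303.5 in Her2, 384.7 and 849.6 in C3Tag, 84.7 and 106.3 in BALB, 80.4 and 114.2 in SEAGN, and 347.6 and 980.2 in AKR-named. The log2 ratio was 1.31, 1.14, 0.33, 0.51 and 1.5 in that order. Only the AKR-named table gave a call, with an FDR of 9.82e-06, and the others had FDRs of 0.333, 0.548, 0.810 and 0.325. In PT, between 32.8% and 51.2% of genes had a lower mean than Pdpn, and per kilobase of exon between 39.7% and 68.65%.

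Aqp5 (ENSMUSG00000044217; chromosome 15, 99590782 to 99594829, plus strand) encodes aquaporin 5, which lets water pass the apical membrane of AT1 cells and of salivary, lacrimal and other secretory glands. Its PT and Lung met means were 57616 and 52674 in Her2, 1995 and 6439 in C3Tag, 3463 and 2191 in BALB, 2195 and 3647 in SEAGN, and 13368 and 13933 in AKR-named. Lung met was the lower group in Her2 and BALB and the higher one in the other tables. The log2 ratios were -0.13, 1.69, -0.66, 0.73 and 0.06, with FDRs of 0.931, 0.241, 0.576, 0.442 and 0.940, and the unadjusted p-value in C3Tag was 0.0137. In the PT, a tissue without lung alveoli, 99.8% of genes in Her2, 98.8% in AKR-named, 98.9% in BALB, 97.9% in SEAGN and 85.3% in C3Tag had a lower mean than Aqp5. High PT ranks of Aqp5, and of Gprc5a in C3Tag, do not single out AT1 cells, and which cells of the primary tumors held these transcripts was not tested.

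**Figure D2:**
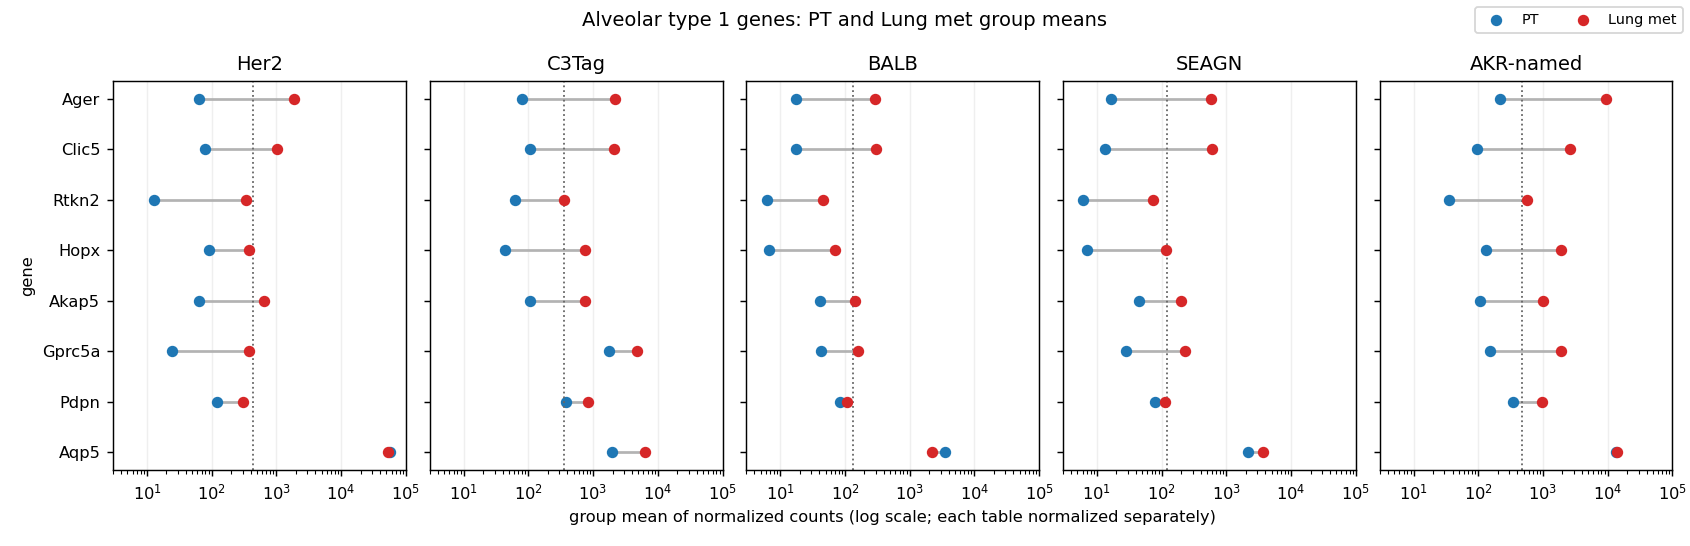
Group means of normalized counts (x axis, log scale) of the 8 AT1 genes (y axis) in PT (blue) and Lung met (red) in the 5 tables with means; the dotted line is the median PT mean of all genes, and the levels of different tables are not on one scale. In Her2, Ager moves from 62.5 to 1847 across the dotted line, while both points of Aqp5, at 57616 and 52674, lie at the far right.

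The order of PT levels between the genes was compared per kilobase of exon. Aqp5 had the highest PT mean per kilobase in 4 of the 5 tables, and Gprc5a had it in C3Tag, with 849.7 against 767.6 for Aqp5. Rtkn2, the lowest, ran from 1.12 in SEAGN to 11.1 in C3Tag. Clic5, which has 8782 bases of exon, was in the second lowest place in each table, with 1.5 in SEAGN and 11.9 in C3Tag. Neighbours in this order cannot be separated from each other by a spread, as none was analysed.

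Over the 40 pairs of gene and table, log2 ratios above 2 went with PT ranks per kilobase of at most 46.7%, the rank of Ager in AKR-named. Within that range the ratios had no single order, as Ager in AKR-named had 5.48 and Rtkn2 in C3Tag, at a rank of 13.1%, had 2.55. The 2 measures share the PT mean, so this is a description of the points and no relation is read from it.

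**Figure D3:**
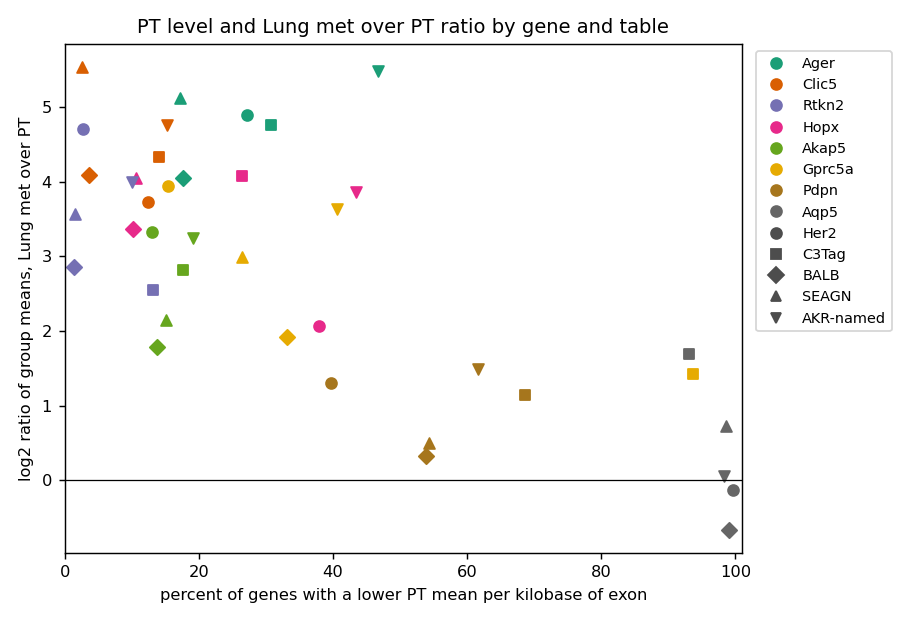
Percent of genes of the table with a lower PT mean per kilobase of exon (x axis) and log2 ratio of Lung met over PT (y axis) for each of the 8 AT1 genes (colors) in the 5 tables with means (symbols). The Aqp5 points and the C3Tag point of Gprc5a lie at the right, at 93.0% or more, with log2 ratios of at most 1.69, and Rtkn2 lies at 13.1% or less in every table.

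In Myc, the p-value was 2.37e-06 for Ager, 7.63e-06 for Akap5 and 3.08e-05 for Rtkn2, which placed them 10th, 15th and 23rd of 17905 genes. Their FDRs were 0.00425, 0.00906 and 0.0240, so these were the 3 AT1 genes called in all 6 tables. Clic5 was next, with a p-value of 7.65e-04 and an FDR of 0.186. Gprc5a had a p-value of 0.0811, Hopx 0.162, Pdpn 0.844 and Aqp5 0.984, all with an FDR of 0.999. The driver models and the PyMT-F1 models were tested with different tools, so the sizes of their p-values are not compared.

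**Figure D4:**
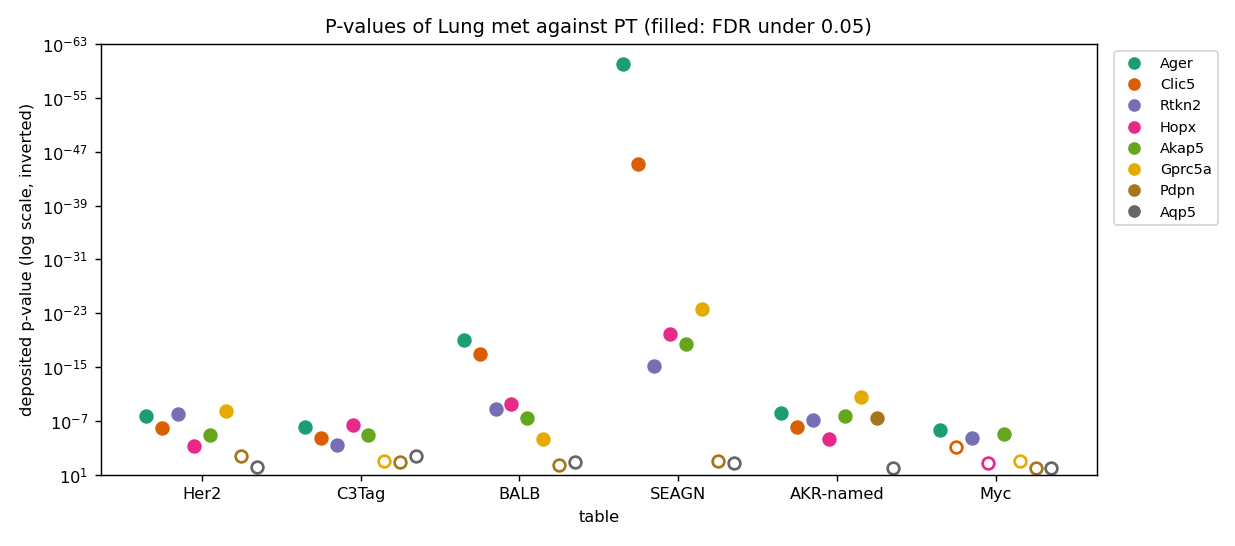
Deposited p-value of Lung met against PT (y axis, log scale, small values at the top) of the 8 AT1 genes in the 6 tables (x axis), with filled points for FDR under 0.05. For Myc the p-value is the one headed tissue. In Myc only Ager, Akap5 and Rtkn2 are filled, and within SEAGN the smallest p-values of the 8 genes are those of Ager and Clic5, 9.31e-61 and 6.45e-46.

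The RefSeq promoters on GRCm38.p6, taken from 250 bases before to 50 bases after the start, were searched on both strands because the genes share a cell type and most were higher together. The 3 motifs were GGAATG (the TEAD core), CTCAAG (the NKX2-1 core) and TGTTTAC (the FOXA core), factors known in lung epithelium. None of these motifs contains another on either strand. Promoters of 6 of the 8 genes were matched, in 7 windows. The windows of Ager, Akap5, Aqp5 and Clic5 held none of the 3 motifs, Hopx held the NKX2-1 core and Pdpn the FOXA core. Of 32851 promoters, 14.7% held GGAATG, 15.9% CTCAAG and 3.65% TGTTTAC. The matches upstream of Hopx and Pdpn are shown because they are the members with a match before the start, each in the direction of its gene, minus strand, with the match in capitals.
Hopx, chr5:77115219-77115246, first capital at -112 from the start, NKX2-1 core read on the other strand: cagaccaaagcCTTGAGaggcggcaaca
Pdpn, chr4:143299700-143299728, first capital at -153 from the start, FOXA core: taaatcagaacTGTTTACtgcacgtggcc
These matches are letters in a window and no evidence of binding.

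Among 14 other genes known from AT1 cells, 12 had a p-value in Her2, C3Tag and AKR-named and 9 in BALB and SEAGN. Called higher were 3 of 12 in Her2, 5 of 12 in C3Tag, 3 of 9 in BALB, 5 of 9 in SEAGN and 9 of 12 in AKR-named, and none was called lower. The medians of their log2 ratios were 0.81, 1.92, 0.64, 0.80 and 1.71 in that order. Spock2, a matrix proteoglycan, was called in all 5 tables, with log2 ratios of 4.65 in Her2, 3.82 in C3Tag, 1.96 in BALB, 3.09 in SEAGN and 3.69 in AKR-named. Col4a3, a collagen IV chain of the alveolar basement membrane, had 5.60 in Her2, 4.83 in C3Tag and 4.63 in AKR-named and was called in each. Scnn1g, a subunit of the epithelial sodium channel, was called in 4 tables and not in Her2, where its log2 ratio of 1.17 had an FDR of 0.181. Krt7, a keratin that mammary epithelium makes too, was called in none, with log2 ratios from -0.55 in SEAGN to 1.39 in C3Tag. Over all genes, the share called higher ran from 0.851% in Her2 to 5.74% in AKR-named, and the shares of each table are given above. For this list and those below, nothing is read from the counts beside these shares.

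Of 8 transcription factors and co-factors of AT1 cells, 6 had a p-value in each table. Gata6 was called higher in Her2, BALB, SEAGN and AKR-named, with log2 ratios of 2.22, 2.30, 3.04 and 3.10 from PT means of at most 11.4. In C3Tag, Gata6 had a log2 ratio of 3.14 and FDR 0.197, so that 0 regulators were called there, and 1 had an unadjusted p under 0.05. Tead1, Tead4, Yap1, Wwtr1 and Klf5, which act in many epithelia, were called in no table, and their log2 ratios lay between -0.83 for Tead4 in AKR-named and 0.56 for Wwtr1 in AKR-named.

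The ligands of RAGE were 6 genes, all with a p-value in each table. S100a9, a calcium-binding protein of neutrophils and monocytes, was called higher in C3Tag, BALB, SEAGN and AKR-named, with log2 ratios of 3.44, 1.96, 3.26 and 4.82. In Her2 it had 2.47 with an FDR of 0.121. Its partner S100a8 was called in Her2, at 2.05, and in AKR-named, at 2.93. Hmgb1, a chromatin protein that acts as a ligand when released, was called in no table, with log2 ratios between -0.26 and 0.19. S100b was called lower in SEAGN, where it fell by 2.02 on the log2 scale, and S100a6 was called lower there too, where it fell by 0.71.

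Of 11 genes for partners of the 8 proteins, between 1 and 3 were called higher per table and none lower, with medians of the log2 ratios from 0.14 in SEAGN to 0.33 in C3Tag. Clec1b, the platelet receptor for podoplanin, was called in Her2, C3Tag and SEAGN at log2 ratios of 1.82, 3.53 and 2.78, in all of which Pdpn itself was not called, and its PT means were at most 6.18. Ezr, Rdx, Diaph1, Rhoa, Cd44, Srf and Hdac2 were called in no table.

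Of 17 close relatives of the 8 genes, 2 of 13 were called higher in Her2, 1 of 14 in C3Tag, 2 of 13 in SEAGN and 3 of 14 in AKR-named, and none was called lower. In BALB, 0 of 13 passed the Benjamini-Hochberg FDR and 5 had an unadjusted p under 0.05. Clic3 was called in Her2, C3Tag, SEAGN and AKR-named with log2 ratios of 2.25, 3.51, 2.39 and 3.10. The other relatives of Clic5, Clic1, Clic4 and Clic6, were called in none. Rtkn, the paralog of Rtkn2, had log2 ratios from -0.18 in BALB to 0.12 in SEAGN, and Gprc5b and Gprc5c were called in no table either. Aqp1, the water channel of endothelium, was called in AKR-named at 1.49 and in no other table. The cell adhesion gene Alcam was called in Her2, SEAGN and AKR-named at 1.55, 0.70 and 1.22.

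**Figure D5:**
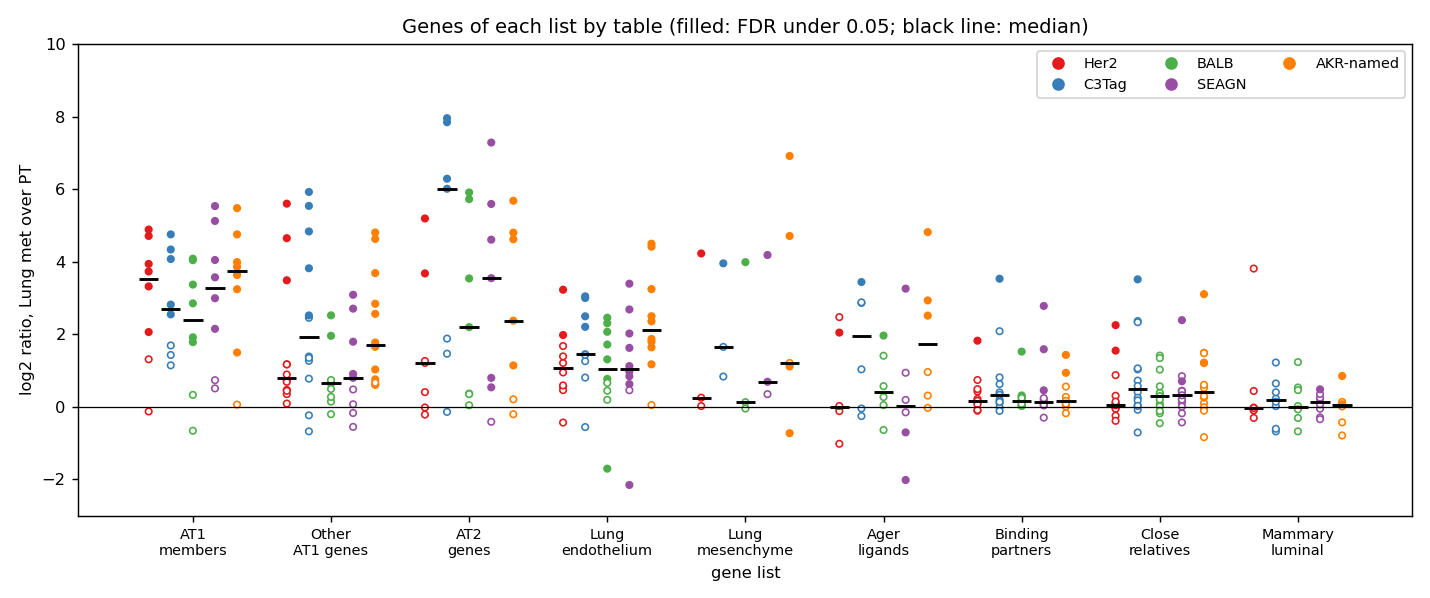
Log2 ratio of Lung met over PT (y axis) of each gene of 9 lists (x axis) in the 5 tables with means (colors), with filled points for FDR under 0.05 and a black line at the median of each list and table. The AT1 genes of this report have medians from 2.38 to 3.75, the AT2 genes from 1.21 to 6.01, and the mammary luminal genes from -0.03 to 0.18, although Krt19 in Her2, which was not called, lies at 3.81.

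Genes of other lung cells were also called in these comparisons. Of 10 AT2 genes, 7 had a p-value in each of the 5 tables with means, and 2, 4, 4, 6 and 5 of them were called higher in Her2, C3Tag, BALB, SEAGN and AKR-named, with none lower. The summed PT mean of the list was between 3849 and 24000 over these tables and the summed Lung met mean between 7297 and 48542. The tables were normalized separately, so these ranges compare no levels between them. Abca3 and Etv5 had the highest PT means of the list in each table, so the PT sums mainly reflect such genes. Of the 24000 in Her2, Etv5 held 13914 and Abca3 5907, beside 18.6 for Lamp3 and 27.1 for Napsa. No gene with a p-value had a PT mean at 0. Lamp3, a lysosomal membrane protein of lamellar bodies, was called in all 5, with log2 ratios from 4.62 in AKR-named to 7.84 in C3Tag. Napsa, the aspartic protease that processes surfactant protein, was called in all 5 as well, from 3.54 in BALB to 6.01 in C3Tag. Sftpd was called in 4 tables, at 5.59 to 6.29, and in Her2 its log2 ratio of 1.21 had an FDR of 0.448. Etv5, which tumors also express, was called in none. The other AT2 genes of the list, Sftpa1, Sftpb and Sftpc, had no value in these 5 tables under a symbol that occurs once. The same held for Cldn18, Nkx2-1, Foxa2, Scgb1a1, Car4, Marco and Tcf21 of the other lists. The counts and medians of the lists leave such genes out.

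Of the 11 genes of lung endothelium, 2 of 10 were called higher in Her2, 4 of 9 in C3Tag, 6 of 10 in BALB, 8 of 10 in SEAGN and 9 of 10 in AKR-named. The summed PT mean of that list was between 1095 and 3820 and its summed Lung met mean between 2031 and 12307. These ranges also span separately normalized tables and compare no levels between them. Vwf, which endothelial cells and platelets use for clotting, was called in all 5 tables at 1.62 to 3.23, and Calcrl, a receptor for adrenomedullin, at 1.98 to 3.00. Pecam1, a marker of all endothelium, was called in SEAGN at 0.63 and in AKR-named at 1.87. Ednrb was called lower in BALB and SEAGN, where it fell by 1.71 and by 2.15 on the log2 scale. Tmem100, called at 2.45 in BALB, 3.39 in SEAGN and 4.41 in AKR-named, was not called in Her2 at 1.67.

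The remaining lists had few genes with a p-value. Of 8 genes of lung mesenchyme, 1 of 3 was called higher in Her2, C3Tag and BALB each, 2 of 3 in SEAGN and 3 of 5 in AKR-named, where 1 was called lower. The medians of their log2 ratios were 0.25, 1.65, 0.13, 0.69 and 1.21 in that order. Foxf1, a mesenchymal and endothelial factor of the lung, was called in Her2, C3Tag, BALB and AKR-named at 4.23, 3.95, 3.99 and 4.71. Npnt, a matrix protein, was called lower in AKR-named, where it fell by 0.73, and Npnt and Limch1 were not called in Her2, at 0.02 and 0.25, or in BALB, at 0.13 and -0.05.

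Of 8 genes of alveolar macrophages, 2 of 5 were called higher in Her2 and C3Tag, 2 of 4 in SEAGN and AKR-named, and 1 was called lower in Her2 and in SEAGN. In BALB, 0 of 3 passed the Benjamini-Hochberg FDR, and 0 had an unadjusted p under 0.05. The medians of the log2 ratios were 1.96 in Her2, 0.79 in C3Tag, 0.18 in BALB, 0.14 in SEAGN and 1.99 in AKR-named. Chil3 was called in Her2 at 5.83 and in SEAGN at 5.80, and Ear2 in C3Tag at 5.92 and in AKR-named at 4.30. Siglecf, a lectin of alveolar macrophages and eosinophils, was called in Her2, C3Tag and AKR-named at 2.67, 3.77 and 3.25, and Plet1 in SEAGN at 0.67. Mrc1 was lower in Her2, where it fell by 1.64, and Krt79 was lower in SEAGN, where it fell by 1.25.

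The airway gene Cyp2f2 was called in Her2, SEAGN and AKR-named at 2.84, 3.63 and 2.72, and Foxj1, the factor of ciliated cells, in none of the 4 tables that give its means. Lyve1, a marker of lymphatic vessels that also make podoplanin, was called in C3Tag, BALB, SEAGN and AKR-named at 2.84, 1.77, 1.77 and 3.48, while Prox1, the factor that defines those vessels, was called in none. In AKR-named, 3 of 5 lymphatic genes were called, with Ccl21a at 3.67 and Flt4 at 1.23 beside Lyve1. Of 5 mesothelial genes, Msln and Wt1 had a p-value in C3Tag, at 2.81 and 0.79 with FDRs of 0.30 and 0.907, and none had one in the other tables with means. The part of these cells in the values of the AT1 genes was not tested.

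Genes of the mammary epithelium were counted in the same way. Among 8 luminal genes, 1 was called in SEAGN, Elf5 at 0.48, and 1 in AKR-named, Cldn3 at 0.85. Of all genes, 5.72% were called higher and 5.14% lower in SEAGN, and 5.74% higher and 1.95% lower in AKR-named. With so few genes in the list, nothing is read from these counts beside the shares. In Her2, C3Tag and BALB, 0 luminal genes passed the Benjamini-Hochberg FDR, and 1, 0 and 2 of them had an unadjusted p under 0.05. The medians of the luminal log2 ratios ran from -0.03 in Her2 to 0.18 in C3Tag. Of the basal genes, Krt5 was called in SEAGN at 1.69, with a value in 3 of the 5 tables with means. Krt14 and Trp63 were called in none. The medians of the basal log2 ratios ran from -0.55 in AKR-named to 0.96 in SEAGN, on 3 and 4 genes. In Myc, where no direction was analysed, the calls among all lists other than the 8 genes were Ndnf, Lamp3, Vwf and Ednrb.

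The genes whose log2 ratios in the 5 tables lay nearest to the median profile of the 8 AT1 genes were ranked by root mean square distance over 12317 genes. Igkc was nearest, at a distance of 0.49 on the log2 scale, followed among genes that are no members by Igha, Gata6, Jchain, Spock2, Fmo2, S100a9, AU021092, Ccdc85a and Atp6v0d2. Igkc, Igha and Jchain encode parts of the antibodies of plasma cells, and each was called in 2 of the 5 tables. Spock2, Fmo2 and Ccdc85a were called in all 5. The members themselves ranked 2nd for Rtkn2, 3rd for Akap5 and 4th for Gprc5a, then 29th for Hopx, 63rd for Clic5, 91st for Ager, 231st for Pdpn and 1834th for Aqp5. The profile has 5 points that were used in choosing the members, so likeness to it is a description. Without the AKR-named table, 7 of these 10 genes remained among the nearest 10.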

How the data were processed

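RNA-seq of PT and Lung met tissue was analysed by the authors in Partek Flow. The methods name the mm9 and the mm10 assembly, and the submitters' processing notes name mm39, STAR 2.7.8a and DESeq2. Gene counts were normalized by a method not given in the sources used here, and Lung met was compared with PT by Gene Specific Analysis in the driver models and by DESeq2 in the PyMT-F1 models. The labels name a stranded total RNA kit. The deposited p-value of each gene was used, as no value of a single sample entered (0 such columns), so count models and limma could not be run. The deposited group means are least-squares means of normalized counts, treated as a signal, and those of the AKR-named table, whose strain was not settled, as a score. Columns of ratios and fold changes that the authors computed were not used.

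The log2 ratio is log2 of the Lung met mean over the PT mean, with no pseudocount. The Benjamini-Hochberg FDR was recomputed over all genes with a p-value, 18208 in Her2, 19320 in C3Tag, 17270 in BALB, 17351 in SEAGN, 17829 in AKR-named and 17905 in Myc, and a gene was called at FDR under 0.05. Exon lengths and coordinates are from GENCODE M21 (GRCm38), and lengths were matched for 82.5% to 99.7% of genes. In BALB and SEAGN the genes carry identifiers of a BALB/cJ annotation, and 2671 and 2684 of them have no symbol. The identifiers printed with the 8 genes are those of the other tables. For BALB and SEAGN the GRCm38 exon lengths were matched by symbol, so their ranks per kilobase rest on lengths of another annotation. Promoters are from RefSeq. The genes and lists were chosen with earlier results of these data known. Named are the 8 genes, the highest and lowest gene of the other lists (in part) and those called in all 5 tables, and the 10 genes nearest to the members' median profile. Further list genes were named after their values were seen. A result of the partner list is not reported here. As the depth is unknown, no counting interval is given. The Benjamini-Hochberg step was tested on simulated p-values with known changed genes, and the rank step on a short made-up series. The other steps were not tested in this way. The tools were pandas 2.3.3, scipy 1.17.1, matplotlib 3.10.9 and numpy 2.4.6 in Python 3.11.15. Alternatives were other thresholds, pseudocounts, centring, a filter on low means and ranks per kilobase.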

Additional observations from a re-analysis of the deposited data

How the results depend on the processing

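The counts of AT1 genes called were identical in each table at FDR under 0.1 with p under 0.05, with the deposited FDR, with a fold change of at least 2 and with a mean of at least 10, the last 2 not applicable to Myc. The deposited FDR differed from the recomputed one by at most 1.9e-14. Each called AT1 gene had a ratio above 2, the lowest being 2.82 for Pdpn in AKR-named. The deposited FDR and the fold change thus could not alter these counts. With a pseudocount of 10, the median log2 ratio of the 8 genes was 1.73 instead of 2.38 in BALB and 2.49 instead of 3.28 in SEAGN. On the unlogged scale, each of these is a change of the ratio by over 1.5-fold. The size of the ratios in these tables thus depends on low PT means, and the ratios without a pseudocount are the larger ones. With that pseudocount 9 of 40 single ratios moved by over 1.5-fold on the unlogged scale. With a pseudocount of 1 or centring on all genes none of the 40 did. Ranks in PT moved by over 10 percentage points for 17 of 40 values per kilobase and for 2 with a mean of at least 10. Over all genes, 372 instead of 216 were called in C3Tag at FDR under 0.1 with p under 0.05, and 755 instead of 1885 in SEAGN with a fold change of at least 2. Leaving out the AKR-named table was added after seeing the data and left 5 AT1 genes called in every table with means and 3 in every table. No paired analysis was possible because the tables hold no values of single samples. The sample titles give a PT and a Lung met of the same animal, and whether the deposited p-values used this pairing is not stated. For the same reason no replicate could be left out.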

Other observations

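The differences between the group means of Lung met and PT were also set against the difference of Ager in the same table, as a percent of it. The difference of Rtkn2 was 18.0% in Her2, 14.3% in C3Tag, 14.3% in BALB, 12.0% in SEAGN and 5.71% in AKR-named. Akap5 gave 32.1%, 31.2%, 37.2%, 27.8% and 9.57% in that order, and Hopx 16.3%, 33.4%, 23.2%, 19.2% and 18.8%. Clic5 ranged more widely, from 26.6% in AKR-named and 53.4% in Her2 to 106.1% in SEAGN, and Gprc5a from 18.7% in AKR-named to 143.6% in C3Tag. Pdpn lay between 6.00% and 22.3%. Aqp5 gave -276.9% in Her2, 213.1% in C3Tag, -466.5% in BALB, 257.8% in SEAGN and 6.07% in AKR-named. No error of these shares was available, so no difference between tables was tested.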
